A study of Mus musculus with 6 samples.

Results

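The inflammatory cytokine and chemokine genes Il6, Il1b, Tnf, Lif, Csf1, Il11, Cxcl1, Cxcl10, Cxcl12 and Ccl2 were followed in mouse ovarian granulosa cells (GCs) 6 h after cyclophosphamide (CTX). Cxcl1, a chemokine that attracts neutrophils, rose from 5.79 ± 0.748 FPKM in the PBS samples to 34.2 ± 4.14 FPKM in the CTX samples (SD, n = 3 each), and it was the most abundant of these genes in both groups. Lif and Il1b were also upregulated from levels below 0.5 FPKM, but their calls were lost under most other settings. Tnf, Cxcl10, Il6 and Il11 were too low for the main test. Of these, Tnf and Cxcl10 were higher in each CTX sample than in each PBS sample, while Il6 and Il11 overlapped between the groups. Among all genes with a mean of 0.1 to 0.5 FPKM, 7.14% were higher in this way, and Tnf and Cxcl10 reached that level only through CTX. Cxcl10 was called in a fit on rebuilt reads, which it entered only through its CTX reads. The 10 genes were chosen by name, each matched 1 row of the deposited table, and they are 10 of its 54532 genes.

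The GCs came from female ICR mice that were 3 weeks old and had been primed with 5 IU of pregnant mare serum gonadotropin (PMSG), a hormone that drives follicle growth. After 22 h the mice received PBS or CTX (120 mg/kg) by intraperitoneal injection, and the GCs were collected 6 h later for RNA-seq. There were 3 samples per group, each a pool of GCs from 3 mice, so the spread between samples is that between pools and not between single animals. CTX is an alkylating drug that the liver turns into its active form, and every sample, PBS included, came from a primed ovary.

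Cytokines and chemokines are secreted signals that cells use to call in and instruct leukocytes. Many of their genes are switched on within hours by the transcription factor NF-kB, and their short-lived mRNAs are removed by proteins that bind AU-rich stretches of the 3′ untranslated region. In the ovary, signals of this kind are best known from ovulation, when the follicle wall passes through a controlled inflammatory reaction and leukocytes enter the tissue.

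Levels are given as FPKM, fragments per kilobase of gene scaled to sequencing depth, which allows levels of different genes to be compared. The number of reads behind each value was rebuilt from FPKM and gene length, and 16005869 to 18455011 reads lay on genes in each sample. For a gene 1 kb long, 3 reads were worth 0.164 to 0.185 FPKM, so values in this range rest on a handful of reads. The 9 granulosa markers were all detected, and their sum was 11470 to 12679 FPKM in PBS and 10283 to 10943 FPKM in CTX, most of it from Inha (8556 to 10402 FPKM). By gene, 6 of the 9 lay wholly below PBS in CTX and Amh wholly above, against 14.1% and 15.0% of all genes tested. None of the 9 was called. Foxl2 was at 188 ± 4.88 and 110 ± 34.2 FPKM, Fshr at 91.8 ± 3.04 and 64.4 ± 19.4 FPKM, and Cyp19a1 at 60.5 ± 1.67 and 28.9 ± 20.7 FPKM in PBS and CTX (SD, n = 3 each). On the first principal component, which carried 46.8% of the variance, CTX replicate 2 lay at 74.7 and the other 5 samples between -26.6 and 13.2. For several of the named genes the log2 fold change is therefore also given without this sample. For Foxl2, Fshr and Cyp19a1 it was -0.82, -0.56 and -1.47 with all samples, and -0.59, -0.29 and -0.62 without CTX replicate 2.

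Genes with a mean of at least 0.5 FPKM over the 6 samples were tested, and a gene was called when limma gave a Benjamini-Hochberg adjusted p below 0.05 and the change exceeded 2-fold on log2(FPKM + 0.1), a scale that compresses differences between low values. Of the 10 cytokines and chemokines, 6 were tested and 3 were called higher in CTX (Cxcl1, Lif and Il1b), against 116 of all 14463 genes tested, or 0.802%. None of the 10 was called lower, against 23 of all genes, or 0.159%. At an unadjusted p below 0.05, limma gave 4 of the 6 tested as higher and 0 as lower, against 10.5% and 9.10% of all genes tested. Lif and Il1b reached the test only through their level in CTX, since both lay below 0.5 FPKM in every PBS sample, so their share of the calls is a description and not evidence about the group of genes. Cxcl1 was the only one of the 10 called when PBS replicate 1, 2 or 3 or CTX replicate 1 or 3 was left out, and Cxcl1 and Lif were called without CTX replicate 2.

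The 6 genes Cxcl1, Il1b, Lif, Csf1, Cxcl10 and Tnf had all 3 CTX values above all 3 PBS values, and none of the 10 lay wholly below. Among genes tested, 4 of the 6 cytokines and chemokines were separated in this way, against 15.0% of all genes tested. Among genes with a mean of 0.1 to 0.5 FPKM, where Tnf, Cxcl10, Il6 and Il11 lie, 2 of these 4 were separated, against 7.14% of the 4872 genes at that level. Lif and Il1b in the first count, and Tnf and Cxcl10 in the second, reached their level class only through CTX, so nothing is read from these counts. For each of the 6 separated genes the two-sided exact permutation test over samples gave p = 0.10, which is the smallest that 3 samples against 3 allow.

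**Figure D1:**
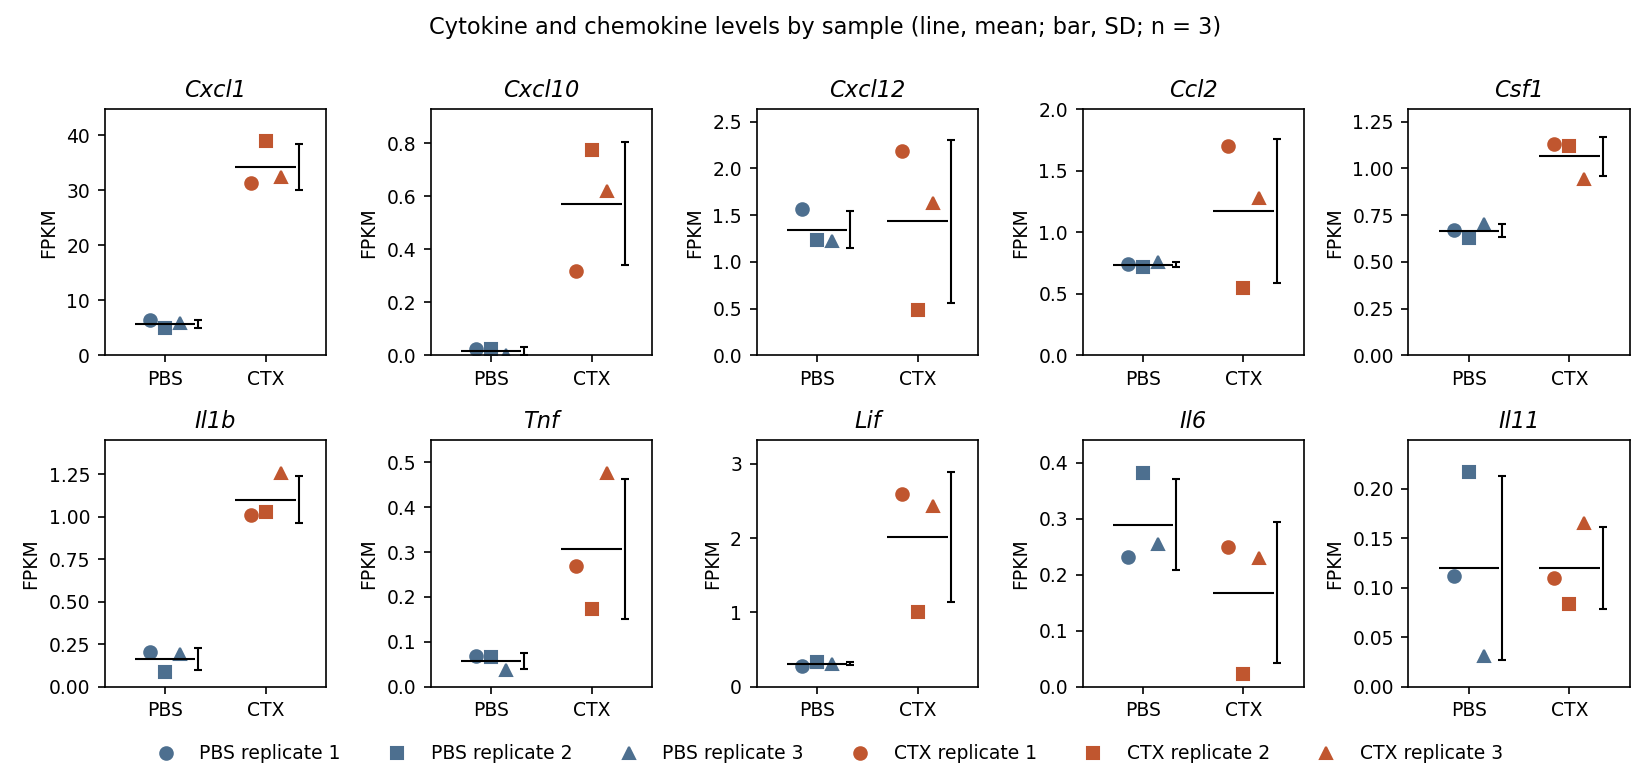
FPKM of the 10 cytokine and chemokine genes in each sample (y axis, linear and starting at 0, with its own range for each gene), with PBS in blue, CTX in orange, and the replicate number as the marker shape. Horizontal lines are means and bars are SD (n = 3). Cxcl1 lies between 31.3 and 39.0 FPKM in CTX and at most 6.49 FPKM in PBS, while CTX replicate 2 is the lowest CTX sample for Lif, Ccl2, Cxcl12 and Il6.

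Cxcl1 (ENSMUSG00000029380, chr5:90891241-90893115, plus strand, GRCm38) is a CXC chemokine that signals through CXCR2. Its level was 6.49, 5.0 and 5.86 FPKM in PBS replicates 1, 2 and 3 and 31.3, 39.0 and 32.5 FPKM in CTX replicates 1, 2 and 3. The lowest CTX sample was thus well above the highest PBS sample, and the CTX samples held 1062, 1296 and 1091 reads, against 172 to 217 in PBS. The ratio of the group means was 5.92, and the log2 fold change was 2.55 (SE 0.13, limma with Benjamini-Hochberg adjustment, adjusted p = 8.2e-04). The call held in all 16 other settings tried, with log2 fold changes of 2.38 to 2.63.

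Cxcl2, a related chemokine that also acts on neutrophils through CXCR2, lies 10.8 kb from Cxcl1 on chromosome 5 and showed a change of similar size. It was at 0.570, 0.607 and 0.478 FPKM in the PBS samples and at 3.44, 3.57 and 3.89 FPKM in the CTX samples, with no overlap and little spread within either group. Its log2 fold change was 2.52 (SE 0.15, limma with Benjamini-Hochberg adjustment, adjusted p = 1.2e-03). Cxcl5, 129.6 kb from Cxcl1 and of the same type, stood at 0.133 to 0.271 FPKM in PBS and at 0.859, 3.51 and 1.47 FPKM in CTX, a log2 fold change of 2.56 that did not pass (SE 0.52, limma with Benjamini-Hochberg adjustment, adjusted p = 0.0789) and was 2.04 without CTX replicate 2 (adjusted p = 0.0753). Cxcl3 had 0, 0 and 1 reads in PBS and 3, 7 and 7 in CTX. The mRNAs of these chemokines resemble each other, so reads from shared stretches could have been assigned to the wrong one, which was not tested.

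The promoters of Cxcl1 and Cxcl2, the pair called in these data, are shown to compare their NF-kB motif. The windows run from 250 bases before to 50 bases after the start of the gene and come from RefSeq on GRCm38.p6, at chr5:90890995-90891294 for Cxcl1 and chr5:90903649-90903948 for Cxcl2, both on the plus strand. Capitals mark the bases matched by the NF-kB motif, which was searched for by name on both strands.
Cxcl1: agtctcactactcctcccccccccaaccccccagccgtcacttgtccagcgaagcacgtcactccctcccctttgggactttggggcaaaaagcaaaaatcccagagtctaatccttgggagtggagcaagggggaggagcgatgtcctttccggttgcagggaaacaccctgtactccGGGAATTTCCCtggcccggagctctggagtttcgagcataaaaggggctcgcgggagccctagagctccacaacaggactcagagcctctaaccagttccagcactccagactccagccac
Cxcl2: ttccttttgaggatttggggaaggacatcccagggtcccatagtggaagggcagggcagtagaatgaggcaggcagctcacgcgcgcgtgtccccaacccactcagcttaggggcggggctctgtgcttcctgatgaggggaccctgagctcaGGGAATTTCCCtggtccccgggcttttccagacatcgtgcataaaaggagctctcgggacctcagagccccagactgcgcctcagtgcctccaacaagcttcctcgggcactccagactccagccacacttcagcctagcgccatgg
The match starts 71 bases before the RefSeq start in Cxcl1 and 97 bases before it in Cxcl2. The deposited table places the gene starts elsewhere, at 90891241 for Cxcl1 and 90903871 for Cxcl2, so these distances depend on the annotation. The match consists of the same 11 letters in both, and it is matched on both strands at overlapping positions. An NF-kB match was found in 8.46% of the 32851 RefSeq windows of this length. A match describes the letters of the window and is not a measured binding site.

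Cxcl10 (ENSMUSG00000034855, chr5:92346638-92348889, minus strand) encodes an interferon-induced chemokine that attracts T cells through CXCR3. It was close to undetected in PBS, with 1, 1 and 0 reads (0.0249, 0.0242 and 0 FPKM), and had 13, 31 and 25 reads (0.319, 0.776 and 0.620 FPKM) in CTX. All CTX samples were above all PBS samples, but the mean was under the filter. The ratio of reads, corrected for the scaling between samples, was 33.6 with an exact 95% counting interval of 8.95 to 283, which covers counting error only. With no filter on low values, limma gave a Benjamini-Hochberg adjusted p of 0.0518, and 0.385% of the 28857 genes then tested were called higher. With voom on the rebuilt reads the gene was called (log2 fold change 4.33, limma with Benjamini-Hochberg adjustment, adjusted p = 0.0383), in a test that called 0.758% of 15445 genes higher. Under voom the genes of the 10 that were called were Cxcl1, Il1b and Cxcl10, and with no filter they were Cxcl1 and Il1b. Cxcl10 and Il1b passed the voom filter, a mean of at least 10 reads, only through their CTX reads. Their voom calls are thus a description.

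The Cxcl10 promoter holds an NF-kB match at 159 bases before the start and overlapping matches at 104 and 103 bases before it, and it is shown because it carries more matches than the promoters of the other genes. The window is chr5:92348840-92349139 on the minus strand (RefSeq, GRCm38.p6), written 5′ to 3′ with the NF-kB matches in capitals.
Cxcl10: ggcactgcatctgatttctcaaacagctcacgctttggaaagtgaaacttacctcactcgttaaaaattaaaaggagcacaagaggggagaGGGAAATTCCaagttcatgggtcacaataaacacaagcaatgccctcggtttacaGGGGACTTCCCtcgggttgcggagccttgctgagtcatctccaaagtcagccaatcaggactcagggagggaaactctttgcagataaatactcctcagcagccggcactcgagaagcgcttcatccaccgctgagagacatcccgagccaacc
It also holds a match to the interferon-stimulated response element (ISRE), found in 3.44% of all windows and in none of the other 8 genes with a window. Of the 10 genes, 9 had a window, and Ccl2 had none. The NF-kB motif was found in 5 of the 9 (Il6, Lif, Csf1, Cxcl1 and Cxcl10), and these 5 include genes that were called and genes, such as Il6, whose groups overlapped. The AP-1 motif TGANTCA was found in 4 of the 9 (Il6, Lif, Il11 and Cxcl10), against 7.81% of all windows. TATAAA was found for Il1b and Tnf, against 13.6% of all windows, and TTGCNNAA, the letters bound by C/EBP factors, for Il6, against 10.8%. The p53 half-site was matched in Il6 (8.36% of all windows). The cAMP response element TGACGTCA (1.79%) and the serum response element (1.63%) were matched in none.

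Cxcl12 (ENSMUSG00000061353, chr6:117168535-117181367, plus strand) encodes a chemokine made by stromal cells that holds CXCR4-bearing cells in place. It was the second most abundant of the 10 in PBS, at 1.57, 1.24 and 1.22 FPKM, and stood at 2.19, 0.483 and 1.63 FPKM in CTX. CTX replicates 1 and 3 were above every PBS sample and CTX replicate 2 was below every one of them. The log2 fold change was -0.12 (SE 0.50, limma with Benjamini-Hochberg adjustment, adjusted p = 0.912), and without CTX replicate 2 it was 0.47 (adjusted p = 0.265). Neither value passed, and the direction turned with 1 sample.

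Ccl2 (ENSMUSG00000035385, chr11:82035571-82037453, plus strand), which draws in monocytes through CCR2, behaved in the same way by sample. Its level was 0.740, 0.719 and 0.759 FPKM in PBS and 1.70, 0.545 and 1.28 FPKM in CTX, so the groups overlapped through CTX replicate 2. The log2 fold change was 0.48 (SE 0.39, limma with Benjamini-Hochberg adjustment, adjusted p = 0.515), and 0.91 (adjusted p = 0.0929) without that sample. These values rest on 14 to 15 reads per PBS sample and 35, 11 and 26 reads per CTX sample. Ccl7, which lies 8.3 kb away, was at 0.210 to 0.817 FPKM in PBS and 0.704 to 1.05 FPKM in CTX and was not called either (adjusted p = 0.277).

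Il1b (ENSMUSG00000027398, chr2:129364570-129371139, minus strand) encodes the pro-inflammatory cytokine IL-1 beta, which acts on IL1R1 and feeds NF-kB. It was at 0.206, 0.0858 and 0.194 FPKM in PBS (7, 3 and 6 reads) and at 1.01, 1.03 and 1.26 FPKM in CTX (35, 35 and 43 reads). The CTX samples lay close together and far above the PBS samples. The log2 fold change was 2.23 (SE 0.35, limma with Benjamini-Hochberg adjustment, adjusted p = 0.0379), and the ratio of means was 6.80. Leaving out any one sample kept the size of the change and ended the call, with log2 fold changes of 2.00 to 2.36 and adjusted p from 0.0621 (without CTX replicate 2) to 0.166 (without CTX replicate 3). On the rebuilt reads, voom gave 2.71 (adjusted p = 0.0242), in a test that Il1b entered only through its CTX reads.

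Tnf (ENSMUSG00000024401, chr17:35199381-35202007, minus strand), the gene of tumour necrosis factor, had 2, 2 and 1 reads in PBS (0.0685, 0.0666 and 0.0377 FPKM) and 8, 5 and 14 reads in CTX (0.269, 0.172 and 0.477 FPKM). The groups did not overlap, and the ratio of reads was 5.26 with an exact 95% counting interval of 2.00 to 17.5. Tnf was under the filter, and with no filter limma gave a Benjamini-Hochberg adjusted p of 0.233. It remained among the lowest of the 10 genes in both groups.

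Csf1 (ENSMUSG00000014599, chr3:107741048-107760469, minus strand) encodes the growth factor of macrophages. It was at 0.669, 0.630 and 0.701 FPKM in PBS and at 1.13, 1.12 and 0.941 FPKM in CTX, again without overlap. The ratio of means was 1.59, under the 2-fold limit, and the log2 fold change of 0.60 did not pass the test (SE 0.20, limma with Benjamini-Hochberg adjustment, adjusted p = 0.187). When samples were weighted by their quality, limma gave an adjusted p of 0.0234 at a log2 fold change of 0.47, still under 2-fold. That fit called 657 of all genes, against 139 in the main fit. The adjusted p of Csf1 was 0.118 with voom and 0.331 in limma with no filter.

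Lif, Il6 and Il11 belong to one family of cytokines that share the receptor chain GP130 (gene Il6st) and signal through JAK kinases and STAT3. Lif (ENSMUSG00000034394, chr11:4257557-4272514, plus strand) was the only one of the 3 that was called. It was at 0.284, 0.326 and 0.312 FPKM in PBS (22, 26 and 22 reads) and at 2.60, 1.01 and 2.43 FPKM in CTX (205, 78 and 189 reads). Every CTX sample was above every PBS sample, and CTX replicate 2 was the lowest of the 3. The log2 fold change was 2.27 (SE 0.38, limma with Benjamini-Hochberg adjustment, adjusted p = 0.0471), and the ratio of means was 6.55. Without CTX replicate 2 it was 2.68 (adjusted p = 4.2e-03), and without any other single sample the call was lost at 2.04 to 2.30, with adjusted p of 0.197, 0.186 and 0.174 without PBS replicates 1, 2 and 3 and 0.0683 and 0.169 without CTX replicates 1 and 3. The call was also lost with voom (adjusted p = 0.0775) and with no filter (adjusted p = 0.0798), and it held in 4 of 16 other settings. The Lif promoter is shown as that of the family member that rose, at chr11:4257318-4257617 on the plus strand (RefSeq, GRCm38.p6), with the NF-kB match, 178 bases before the start, in capitals.
Lif: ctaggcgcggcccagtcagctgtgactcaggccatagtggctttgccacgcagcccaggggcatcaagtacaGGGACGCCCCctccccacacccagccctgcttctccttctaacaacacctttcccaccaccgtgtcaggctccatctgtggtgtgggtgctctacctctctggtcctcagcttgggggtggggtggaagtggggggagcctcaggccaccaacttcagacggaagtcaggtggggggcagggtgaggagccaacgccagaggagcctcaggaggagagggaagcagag

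Il6 (ENSMUSG00000025746, chr5:30013114-30019981, plus strand), the best known member of that family, was at 0.231, 0.382 and 0.254 FPKM in PBS (10, 17 and 10 reads) and at 0.250, 0.0232 and 0.230 FPKM in CTX (11, 1 and 10 reads). CTX replicates 1 and 3 lay at or near the PBS range, and CTX replicate 2 held a single read. The ratio of reads was 0.579 (exact 95% counting interval 0.325 to 1.01), the difference on the log2 scale was -0.66, and it was -0.18 without CTX replicate 2. Il11 (ENSMUSG00000004371, chr7:4772373-4782857, minus strand), which is known from fibrosis and from the uterus, had 4, 8 and 1 reads in PBS and 4, 3 and 6 reads in CTX. Its ratio of reads was 0.973 (0.416 to 2.28). That interval covers counting error only and leaves out the spread between pools, so it is not a limit of detection. With no filter, limma gave Benjamini-Hochberg adjusted p of 0.636 for Il6 and 0.943 for Il11.

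By mean level, the order in PBS was Cxcl1, Cxcl12, Ccl2, Csf1, Lif, Il6, Il1b, Il11, Tnf and Cxcl10. The sample ranges of neighbours in that order overlapped for Lif and Il6, for Il1b and Il11, and for Il11 and Tnf. In CTX the order was Cxcl1, Lif, Cxcl12, Ccl2, Il1b, Csf1, Cxcl10, Tnf, Il6 and Il11. Cxcl1 was apart from the others in that group too, the 5 genes from Lif to Csf1 overlapped their neighbours, and so did the 4 from Cxcl10 to Il11. Csf1 and Cxcl10 did not overlap.

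**Figure D2:**
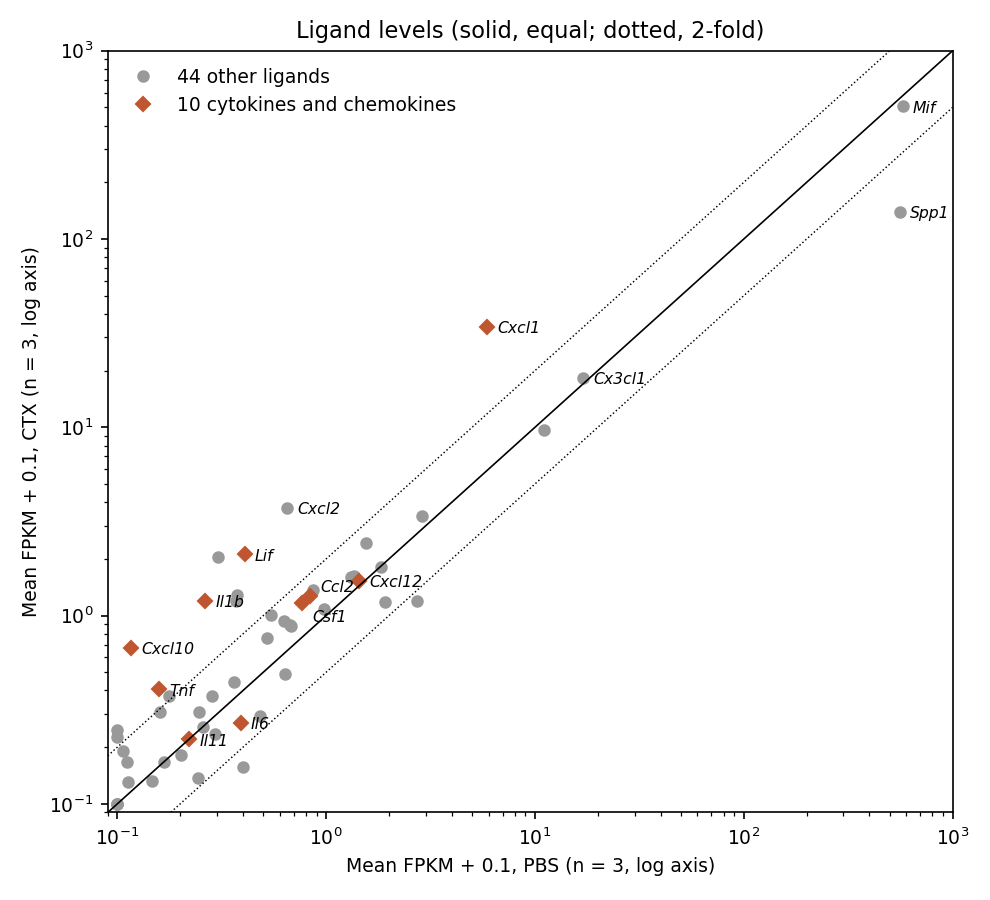
Mean FPKM + 0.1 in PBS (x axis) and CTX (y axis) on log axes, n = 3 samples per group, for the 10 cytokines and chemokines (orange) and 44 other ligands (grey). The solid line marks equal levels and the dotted lines a 2-fold difference. Of the labelled genes, Cxcl1, Cxcl2, Lif, Il1b, Cxcl10 and Tnf lie above the upper dotted line and Spp1 below the lower one. Il11, Cxcl12, Cx3cl1 and Mif lie close to the solid line. Unlabelled ligands lie beyond both dotted lines too, such as Cxcl5 above and Clcf1 below.

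A wider list of 44 other cytokine, chemokine and related ligand genes gave 22 that were tested, of which 1, Cxcl2, was called higher and 0 were called lower by limma (voom again gave 1 and 0). At an unadjusted p below 0.05, 5 of the 22 were higher and 2 lower, against 10.5% and 9.10% of all genes tested. The median log2 fold change of those tested was 0.23, beside -0.01 for all genes. Without CTX replicate 1, Cxcl5 was called as well (3.00, adjusted p = 0.0430), and without CTX replicate 2, Spp1 was called lower (-1.49, adjusted p = 0.0183). Of the 22 tested, 6 lay wholly above in CTX and 3 wholly below, against 15.0% and 14.1% of all genes tested, and Cxcl5, Ccl3 and Ccl4 among the 6 were tested only through their level in CTX. Csf2, Ccl20 and Cxcl11 had 0 reads in every sample, which allows up to 3 reads in each. The most abundant were Mif, a cytokine stored in many cell types, at 532 to 652 FPKM in PBS and 487 to 518 FPKM in CTX, Spp1 (osteopontin) at 476 to 619 and 14.3 to 242 FPKM, and Cx3cl1 (fractalkine) at 16.3 to 18.0 and 16.8 to 20.3 FPKM. None of these 3 was called with all 6 samples (adjusted p = 0.381, 0.219 and 0.552). Cxcl1 in CTX thus stood above Cx3cl1, while in PBS it stood below.

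Of the 16 receptor genes for these ligands, 10 were tested and 0 were called by limma. At an unadjusted p below 0.05, 1 of the 10 was higher and 1 lower, which is the share found over all genes tested (10.5% and 9.10%), and voom called 0 of 11. The median log2 fold change was 0.08. The most abundant were Tnfrsf1a, a receptor of TNF, at 29.2 to 30.2 FPKM in PBS and 31.2 to 35.0 FPKM in CTX, Il6st, the shared chain of the IL-6 family, at 11.2 to 12.6 and 10.8 to 13.0 FPKM, and Tnfrsf1b, the other TNF receptor, at 8.37 to 8.92 and 9.14 to 10.5 FPKM.

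The receptors that pair with the genes that rose were unequal in level. Il1r1, the signalling receptor of IL-1 beta, was at 9.21, 8.97 and 8.34 FPKM in PBS and 8.23, 4.23 and 5.51 FPKM in CTX, with a log2 fold change of -0.61 (SE 0.23, limma with Benjamini-Hochberg adjustment, adjusted p = 0.227), and of -0.39 without CTX replicate 2 (adjusted p = 0.274). Lifr, the specific chain for LIF, was at 1.56 to 1.99 FPKM in PBS and 1.24 to 1.5 FPKM in CTX (adjusted p = 0.295). Cxcr2, the receptor of Cxcl1 and Cxcl2 and a neutrophil gene, was at 0.0184 to 0.0810 FPKM in PBS and 0.0362 to 0.0549 FPKM in CTX. Among receptors of the other ligands, Cxcr4 stood at 6.97 to 7.76 FPKM in PBS and at 9.0, 1.43 and 4.91 FPKM in CTX, and Ackr3, which also binds CXCL12, at 4.72 to 5.11 and 5.54 to 8.22 FPKM (adjusted p = 0.454 and 0.168). The log2 fold change of Cxcr4 was -0.85, and -0.13 without CTX replicate 2 (adjusted p = 0.794), and that of Ackr3 was 0.49, and 0.37 without it (adjusted p = 0.188). Il11ra1 (5.01 to 5.65 and 4.96 to 7.45 FPKM) has near-identical copies in the mouse genome, so its values are uncertain. Il1rap (adjusted p = 0.936) and Csf1r (adjusted p = 0.535) were tested and not called, and Il6ra, Cxcr3, Ccr2, Ackr1 and Ackr2 were under the filter.

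**Figure D3:**
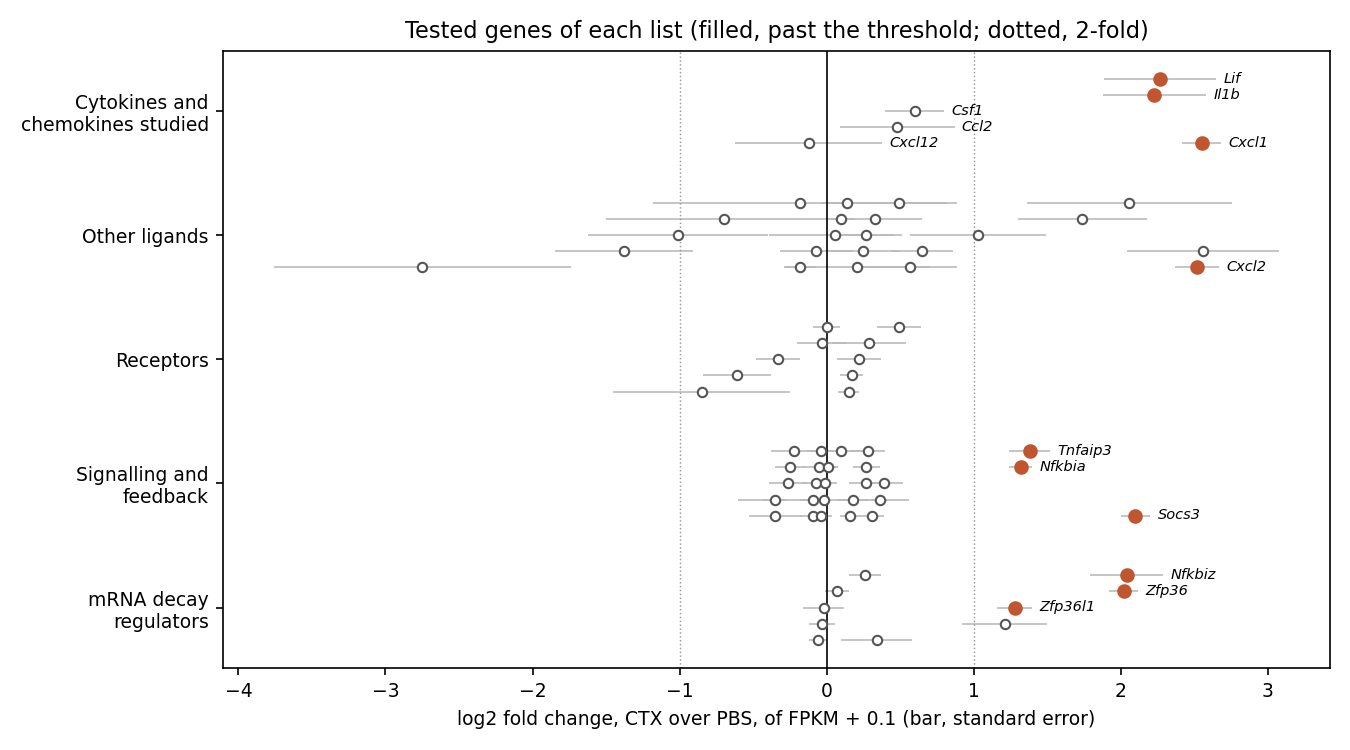
Log2 fold change of CTX over PBS on FPKM + 0.1 (x axis, bars are the standard error) for the tested genes of each list (y axis, points spread for legibility). Filled points are genes called by limma, and dotted lines mark a 2-fold change. All 10 filled points lie to the right, between 1.28 and 2.55, and none is among the receptors.

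Of 28 genes that carry or restrain cytokine signalling, 26 were tested, 3 were called higher and 0 lower, with a median log2 fold change of 0.00. At an unadjusted p below 0.05, 8 were higher and 2 lower, against 10.5% and 9.10% of all genes tested. The 3 called genes encode inhibitors, and so do the 2 that were lower at an unadjusted p, Socs1 (log2 fold change -0.35, adjusted p = 0.102) and Socs2 (-0.25, adjusted p = 0.248), both wholly below PBS in CTX. Socs3, which blocks JAK signalling below GP130, was at 22.2, 22.5 and 21.6 FPKM in PBS and 91.0, 86.6 and 110 FPKM in CTX (log2 fold change 2.10, SE 0.10, limma with Benjamini-Hochberg adjustment, adjusted p = 8.2e-04). Nfkbia, which encodes the inhibitor that holds NF-kB in the cytoplasm and is itself an NF-kB target, was at 33.1, 31.8 and 33.8 FPKM in PBS and 89.0, 83.8 and 74.3 FPKM in CTX (1.32, SE 0.08, adjusted p = 1.4e-03). Both held in all 16 other settings. Tnfaip3, which encodes the ubiquitin-editing enzyme A20, was at 0.839, 1.05 and 0.957 FPKM in PBS and 2.64, 2.49 and 2.75 FPKM in CTX (1.38, SE 0.14, adjusted p = 8.0e-03), and its call was lost without PBS replicate 3 (1.39, adjusted p = 0.0583) or CTX replicate 3 (1.35, adjusted p = 0.0628).

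None of the tested kinases, adaptors and transcription factors of these pathways was called. Jak1, the most abundant gene of the list, was at 164 to 174 FPKM in PBS and 146 to 179 FPKM in CTX, and Stat3 was at 11.4 to 12.5 and 11.5 to 12.6 FPKM (adjusted p = 0.623 and 0.922). Rela, which encodes an NF-kB subunit, was at 30.4 to 32.1 FPKM in PBS and 38.7 to 42.0 FPKM in CTX, without overlap, but its log2 fold change of 0.36 was under the 2-fold limit (SE 0.06, limma with Benjamini-Hochberg adjustment, adjusted p = 0.0502). Socs2, also among the 3 most abundant, was at 76.9 to 79.7 and 57.4 to 74.4 FPKM (adjusted p = 0.248). The natural IL-1 blockers Il1rn and Il1r2 were under the filter.

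Of 11 regulators that destroy or stabilise cytokine mRNAs or act with NF-kB on cytokine promoters, 10 were tested, 3 were called higher and 0 lower, with a median log2 fold change of 0.30. At an unadjusted p below 0.05, 4 were higher and 0 lower, against 10.5% and 9.10% of all genes tested. Zfp36, which encodes tristetraprolin and removes mRNAs with AU-rich elements, was at 39.1, 39.7 and 36.2 FPKM in PBS and 156, 139 and 174 FPKM in CTX (2.02, SE 0.10, limma with Benjamini-Hochberg adjustment, adjusted p = 8.2e-04), and it was called in all 16 other settings. Its relative Zfp36l1 was at 20.5, 20.8 and 18.4 FPKM in PBS and 41.2, 55.3 and 50.2 FPKM in CTX (1.28, SE 0.12, adjusted p = 5.8e-03), with the call lost without PBS replicate 3 (1.23, adjusted p = 0.0505). Nfkbiz, a nuclear partner of NF-kB, was at 2.54, 3.40 and 2.62 FPKM in PBS and 12.0, 8.61 and 16.6 FPKM in CTX (2.04, SE 0.25, adjusted p = 0.0174), and was not called without PBS replicate 1 (1.97, adjusted p = 0.0961), 2 (2.17, 0.0615) or 3 (1.99, 0.105). Zfp36l2, also among the 3 most abundant of the list, was at 35.4 to 37.1 FPKM in PBS and 55.1, 129 and 83.1 FPKM in CTX (1.21, SE 0.29, adjusted p = 0.112), and it was called without CTX replicate 1 (1.51, adjusted p = 0.0233) but stayed under 2-fold without CTX replicate 2, its highest sample (0.90, adjusted p = 0.0455). Khsrp (63.5 to 66.4 and 59.2 to 65.5 FPKM) was not called (adjusted p = 0.611), and without PBS replicate 3 Zfp36 was the only gene of the 11 that was.

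The mRNAs of the 10 genes were searched for ATTTA, the core of the AU-rich element, in their longest annotated 3′ untranslated region (GENCODE M21, GRCm38). Cxcl1 held 7 copies, or 11.8 per kb, a density above that of 99.2% of 20965 genes. Tnf followed with 8 copies (10.5 per kb), Il1b with 4 (8.71 per kb), Il11 with 10 (8.38 per kb) and Il6 with 10 (6.00 per kb). Ccl2 (3.64 per kb), Cxcl10 (3.01), Lif (2.20) and Csf1 (1.89) were above the median gene (1.23 per kb), and Cxcl12 (0.771) was below it. The density of Ccl2 rests on 1 copy in 275 bases, and the median number of copies over all genes was also 1. High density was thus found both in genes that rose, such as Cxcl1, and in genes whose groups overlapped, such as Il6 and Il11.

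GCs collected from ovaries can carry other cells, and in bulk RNA a change in the share of a cell type cannot be told apart from a change in RNA per cell. The summed FPKM of 14 macrophage and leukocyte markers was 22.9 to 27.4 in PBS and 40.2, 74.0 and 28.0 in CTX replicates 1, 2 and 3. Lyz2 made up much of that sum, at 13.1 to 14.3 FPKM in PBS and 22.9, 45.8 and 14.7 FPKM in CTX. Of the 14, Cd68, C1qc, Lyz2 and Aif1 lay wholly above PBS in CTX, Coro1a lay wholly below, the other 9 overlapped, and none was called. Of the 8 tested, 3 lay wholly above and 1 below, against 15.0% and 14.1% of all genes tested. Aif1 was at 0.0366 to 0.178 FPKM in PBS and 0.396, 0.589 and 0.401 FPKM in CTX. The pan-leukocyte marker Ptprc was at 0.0708 to 0.0983 FPKM in PBS and 0.0640 to 0.0923 FPKM in CTX. The 6 neutrophil markers summed to 1.38 to 2.69 FPKM in PBS and 1.07 to 1.58 FPKM in CTX, and the 5 lymphocyte markers to 0.297 to 0.685 and 0.439 to 0.615 FPKM. S100a8 and S100a9 made up much of the neutrophil sum. Of the 6 neutrophil markers, Retnlg lay wholly above PBS in CTX, with 0 reads in each PBS sample and 2, 1 and 3 in CTX. The other 5 overlapped.

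CTX replicate 2 was also the sample with the lowest summed theca and stroma signal. The 7 theca and stroma markers summed to 49.6 to 52.6 FPKM in PBS and to 66.2, 9.95 and 41.6 FPKM in CTX. Cyp17a1 carried most of the sum in PBS (30.8 to 34.4 FPKM) and was at 29.6, 1.25 and 12.4 FPKM in CTX. Col1a1, Col1a2, Pdgfra, Dcn and Lum were above every PBS sample in CTX replicates 1 and 3 and below every one in CTX replicate 2, as Cxcl12 and Ccl2 were. Lum, for example, was at 1.96 to 2.47 FPKM in PBS and 4.60, 1.91 and 4.72 FPKM in CTX. Insl3, the remaining gene of the list, went another way, at 0.270 to 0.396 FPKM in PBS and 0.354, 0.814 and 1.16 FPKM in CTX. It was thus above every PBS sample in CTX replicate 2. The 6 endothelial markers summed to 5.63 to 6.26 FPKM in PBS and 4.76, 2.39 and 5.15 FPKM in CTX. Most of that sum came from Cdh5, at 3.66 to 4.49 FPKM in PBS and 2.99, 1.25 and 3.11 FPKM in CTX, so it mainly follows 1 gene. Surface epithelium markers were lowest in that sample too (4.57 to 5.54 in PBS and 6.36, 1.69 and 3.90 in CTX), while oocyte markers did not (30.2 to 64.7 in PBS and 41.0, 68.7 and 69.3 in CTX). Of the 10 genes, Cxcl12, Ccl2, Il6, Lif, Tnf and Il11 had their lowest CTX value in that sample, Cxcl1 and Cxcl10 their highest, and Il1b and Csf1 neither. No marker list had a gene at 0 reads in all 6 samples, and the part of these cells in the levels of the cytokines was not tested.

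**Figure D4:**
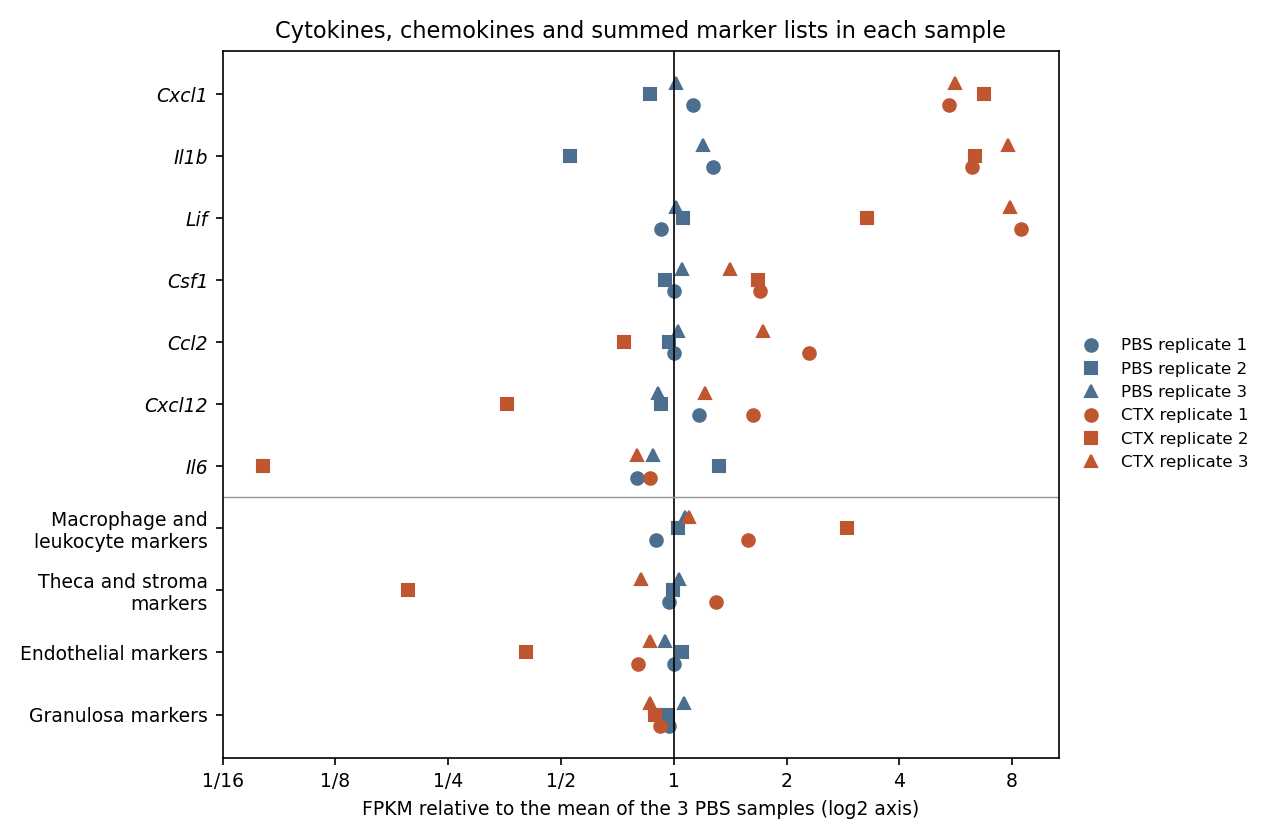
FPKM in each sample relative to the mean of the 3 PBS samples (x axis, log2 scale) for 7 cytokines and chemokines and 4 summed marker lists (y axis), with PBS in blue, CTX in orange and the replicate number as the marker shape. CTX replicate 2 (orange squares) lies far to the left for the theca and stroma markers, Cxcl12 and Il6 and to the right for the macrophage markers, while for Cxcl1 and Il1b the 3 CTX samples lie together.

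For the called genes, those whose log2 values followed them most closely over the 6 samples were found among 14462 tested genes. For Cxcl1 they were Perp, Pcbd1 and Topors (Pearson r = 0.9988, 0.9985 and 0.9985), for Il1b Gsto1, Eef2 and Fndc10 (0.9956, 0.9956 and 0.9952) and for Lif Mgmt, Ctxn1 and Slc25a39 (0.9991, 0.9965 and 0.9956). With 6 samples in 2 groups that stand apart, r mostly measures that gap, and these values are a description. Perp, a p53 target that takes part in apoptosis, went from 1.87 to 5.18 FPKM on average, and Eef2 only from 881 to 1076 FPKM.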

How the data were processed

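RNA-seq of GCs was analysed in 3 PBS and 3 CTX samples, grouped by their labels. The authors deposited an FPKM table of 54532 genes, with Ensembl gene identifiers and positions on GRCm38. The submitters' processing notes name CASAVA 1.8, fastp, HISAT2 2.0.5, featureCounts 1.5.0-p3, DESeq2 1.20.0 and mm10, without roles. Whether strand was used in counting is not given in the sources used here, so antisense reads cannot be told apart. The deposited table also holds the authors' group means, log2 fold changes, p-values and adjusted p-values, which were not used.

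FPKM multiplied by gene length gave whole reads for 100.00% of values (tolerance 0.05 read). The FPKM carried a median-of-ratios scaling. The log2(FPKM + 0.1) values were fitted in limma 3.58.1 (lmFit, eBayes with trend) in R 4.3.3, for genes with a mean of at least 0.5 FPKM, with p-values adjusted over all genes tested. The fit was tested on simulated data. Fits on reads used limma's voom, with a mean of at least 10 reads. Counting intervals were exact conditional binomial intervals (95%). Alternatives were other pseudocounts, filters and scalings, a replicate block, arrayWeights, no trend, voom, and each sample left out.

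All 10 genes, the called genes (up to 5) and the 3 most abundant of each list, the receptors and the 3 genes most like each called gene were named, as were Cxcl3, Cxcl5, Ccl7, Rela, Stat3, Socs1, Ccl3, Ccl4, Csf2, Ccl20, Cxcl11, Il1rn, Il1r2 and the cell type markers, chosen after their values were seen. The genes and lists were chosen with earlier results of these data known. Ccl27a stood on 3 rows, and the one with most reads was used. Tables and figures were made with Python 3.11.15, SciPy 1.17.1 and matplotlib 3.10.9.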

Additional observations from a re-analysis of the deposited data

How the results depend on the processing

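Of the 139 genes called among all genes tested, the replicate block left 50 and arrayWeights gave 657, and leaving out 1 sample gave 58 to 208. Of the 10 cytokines and chemokines, 3 were called, and 1 was with a pseudocount of 1, with a mean of at least 5 FPKM and with the replicate block, and 1 to 2 were with 1 sample left out. The other ligands gave 0 calls at a mean of at least 5 FPKM, where Cxcl2 was not tested, 6 with arrayWeights and 1 to 2 with 1 sample left out. The mRNA regulators gave 1 with the replicate block and 1 to 4 with 1 sample left out. The counts of signalling genes, receptors and separated genes kept within 1.5 times their value in every setting tried. Cxcl12 turned to 0.26 with arrayWeights and 0.47 without CTX replicate 2, and lay between -0.51 and 0.47 with 1 sample left out. Cxcl10 ranged from 0.62 (pseudocount 1) to 4.58 (pseudocount 0.01), and Tnf from 0.30 to 2.14. The cause of these changes was not tested, apart from the filters and pseudocounts, which act on low genes by construction.

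The replicate numbers of the labels do not mark shared mice. Same-numbered PBS and CTX samples deviated together by no more than r = 0.056, and differently numbered ones by -0.076 to 0.059. With 3 samples per group this check cannot exclude shared handling by number. The samples were treated as unpaired in the main fit. Few reads lie behind most of these genes, and changes in Il6, Il11 and Tnf cannot be sized closely at this depth. Intervals cover counting error only, since reads are not independent molecules, and nothing in the labels gives a batch.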
